A study of Rattus norvegicus with 24 samples.

Results

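Tubulin genes were followed in the liver of rats fed rotenone, a complex I inhibitor that also binds tubulin. The 10 genes were chosen by symbol and comprise 4 alpha-tubulins (Tuba1a, Tuba1b, Tuba1c and Tuba4a), 5 beta-tubulins (Tubb2a, Tubb2b, Tubb4b, Tubb5 and Tubb6) and the gamma-tubulin Tubg1. All 10 were found among the 22093 genes that the array measured with a symbol of their own. Livers came from 24 male Wistar rats of the RccHan strain, aged 7 to 8 weeks, and the labels name no transgene or deletion. Food held 400 ppm rotenone or none, and livers were taken on day 1, 3 or 14 of feeding. Of 5 rats assigned to a group, 4 animals in each of the 6 groups were measured on the Rat Transcriptome Array 1.0, 1 array per animal. The labels name the animals as biological replicates, housed 2 or 3 to a cage, and do not say which shared a cage.

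Microtubules are hollow polymers built from paired alpha- and beta-tubulin, and gamma-tubulin starts their growth at the centrosome and at other organising sites. Vertebrates carry several genes for alpha- and beta-tubulin, whose products differ mainly in their acidic tails and in the tissues that use them. In hepatocytes microtubules carry lipoprotein and bile transporter vesicles, and in dividing cells they form the spindle. In cultured mammalian cells, tubulin that is not in polymer lowers its own mRNA: the factor TTC5 recognises the first residues of nascent tubulin and recruits the CCR4-NOT complex, which shortens the mRNA's tail. Rotenone and colchicine-like compounds keep tubulin out of the polymer.

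Values are log2 of the deposited intensity plus 1, each gene being represented by the transcript cluster (the array's unit for a gene) with the highest mean. Changes are rotenone minus control of the same day, with 4 livers in each group, and stand with their moderated standard error (±). That error and the p-values use 1 spread per cluster from all 24 arrays, and so draw on livers of the other days too. The words rose and fell are kept for genes whose p-value from limma, after Benjamini-Hochberg adjustment over 68842 clusters, was under 0.05. Array medians lay between 29.2 and 35.7 on the linear scale, and arrays of 1 group correlated with r of 0.990 to 0.996. The number of arrays limits the precision. The 9 hepatocyte markers found, of 10 listed, all lay above the negative controls, with a mean log2 intensity of 17.3 to 17.7 in the 6 groups. The median of the probe sets named as negative controls lay at 5.05 and their 95th percentile at 8.32. All tubulin genes had means above that median. Of these, 4 (Tuba4a, Tubb2b, Tubb6 and Tubg1) lay below that percentile, so that their changes may be compressed. The mean of Tubb2a in rotenone livers of day 14, 7.49, also lay below it, so that its fold at that day may be compressed as well. In whole tissue, fewer cells of a type and less RNA per cell cannot be told apart.

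Of the 5 beta-tubulin mRNAs, 4 fell in rotenone liver, with Tubb2a lower by 1.88 ± 0.36 at day 14, a 3.68-fold difference. At day 3, 4 of 10 tubulin genes fell and none rose: Tubb2a, Tubb2b, Tubb5 and Tubb6. At day 14 Tubb2a and Tubb2b fell. At day 1 no representing cluster of a tubulin gene passed the limma test, with 3 at an unadjusted p under 0.05 and 0 called by the filter modelled on the study's methods. No alpha-tubulin passed on a single day by its representing cluster, while a second Tuba1c cluster fell at day 1 by 0.73 ± 0.21 (adjusted p = 0.0485, limma). Averaged over the days Tuba1c fell and Tubg1 rose, both by small amounts.

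Among all 22093 genes, 5.69% rose and 3.73% fell at day 1, 3.53% and 3.11% at day 3, and 5.98% and 3.33% at day 14. Among the 14873 genes at or above the negative control median, 5.28%, 4.38% and 4.85% fell on these days. The median change of the tubulin genes was -0.23, -0.54 and -0.20 at days 1, 3 and 14, against -0.03, 0.03 and 0.01 for all genes. Estimates lay below 0 for 8, 9 and 7 of the 10 genes. All 4 rotenone livers lay below all 4 controls for 2 tubulin genes at day 1 (8.38% of all genes), for 7 at day 3 (7.41%) and for 0 at day 14 (5.95%). The reverse order was seen for Tubg1 at day 3, where it held for 9.27% of all genes. Averaged over the days, 5 tubulin genes fell (8.31% of all genes) and 1 rose (12.7%).

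**Figure D1:**
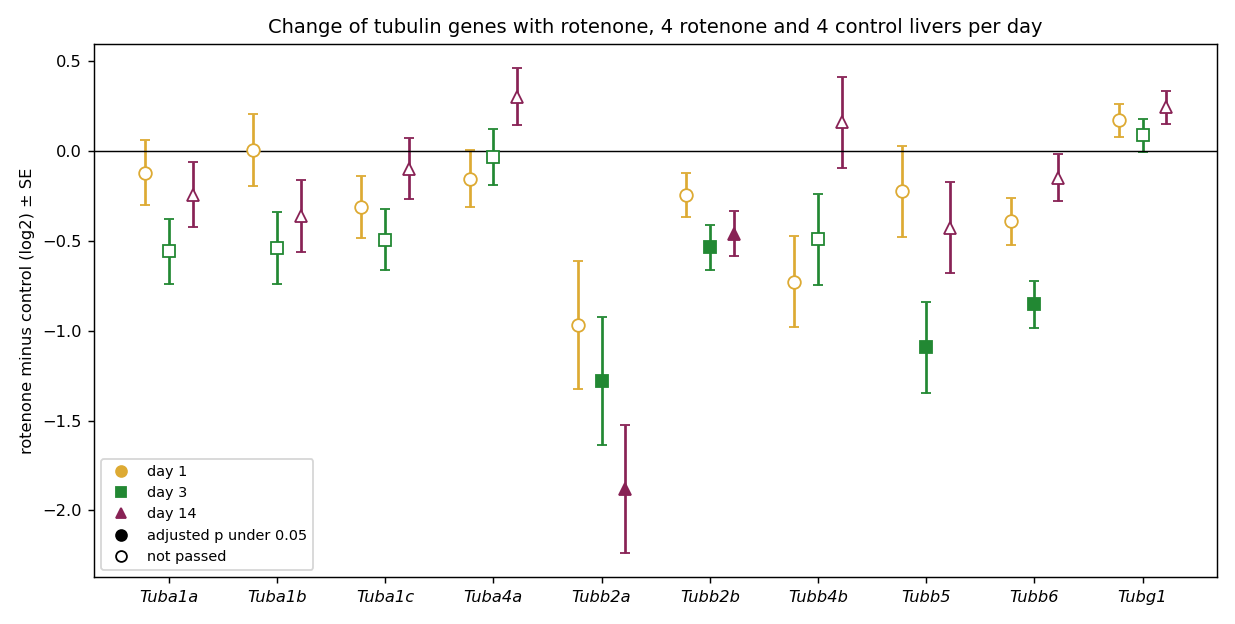
The 10 tubulin genes are on the x axis and rotenone minus control in log2 intensity is on the y axis, with 1 symbol per day and bars for the standard error. Filled symbols passed the adjusted threshold: Tubb2a and Tubb2b at days 3 and 14, and Tubb5 and Tubb6 at day 3.

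The 4 beta-tubulins that fell lie on chromosomes 17, 18 and 20, with Tubb2b and Tubb2a near each other on chromosome 17. The 250 bases before their annotated starts are shown because these 4 genes were lower together at day 3. They were taken from RefSeq on GRCr8, all on the plus strand, for chr17:31001936-31002185 (Tubb2a), chr17:30952836-30953085 (Tubb2b), chr20:2917327-2917576 (Tubb5) and chr18:63213037-63213286 (Tubb6). Capitals mark, on either strand, CCAAT (the letters NF-Y binds), TATAAA (the element found close to some start sites) and GGGCGG (which SP1-type factors bind).
Tubb2a: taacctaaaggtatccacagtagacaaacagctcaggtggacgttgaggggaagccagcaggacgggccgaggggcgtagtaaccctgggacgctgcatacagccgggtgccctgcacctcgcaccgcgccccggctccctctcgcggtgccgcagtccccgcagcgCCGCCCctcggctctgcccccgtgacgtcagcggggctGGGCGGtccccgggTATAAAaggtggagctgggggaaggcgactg
Tubb2b: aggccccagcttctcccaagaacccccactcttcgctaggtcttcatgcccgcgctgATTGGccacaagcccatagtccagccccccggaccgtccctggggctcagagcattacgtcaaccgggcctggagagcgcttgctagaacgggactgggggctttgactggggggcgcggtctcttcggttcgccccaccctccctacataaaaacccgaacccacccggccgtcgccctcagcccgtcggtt
Tubb5: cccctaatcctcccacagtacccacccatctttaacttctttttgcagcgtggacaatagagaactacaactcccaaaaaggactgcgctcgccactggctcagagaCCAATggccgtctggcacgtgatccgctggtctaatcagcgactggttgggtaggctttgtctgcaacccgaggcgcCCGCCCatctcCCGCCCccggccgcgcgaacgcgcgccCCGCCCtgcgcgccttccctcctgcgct
Tubb6: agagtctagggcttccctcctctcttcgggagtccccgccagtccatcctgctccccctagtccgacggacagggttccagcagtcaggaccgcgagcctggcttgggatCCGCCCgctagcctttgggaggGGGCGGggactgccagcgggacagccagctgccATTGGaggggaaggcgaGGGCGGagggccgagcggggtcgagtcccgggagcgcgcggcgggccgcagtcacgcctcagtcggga
Tubb2a held TATAAA 31 bases before the start, in none of the other 3, and no CCAAT. The other 3 held 1 CCAAT each, 193, 143 and 85 bases before the start in Tubb2b, Tubb5 and Tubb6. Over all 10 tubulin genes, each matched to a RefSeq promoter, CCAAT occurred in 8 (34.3% of 27457 rat promoters of this length), GGGCGG in 8 (32.4%), TATAAA in 2 (13.1%) and TTTGAA, the letters of the CHR element of cell-cycle genes, in 2 (16.0%). In the 4 windows shown no match overlapped another, and a match describes letters only.

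Tubb2a encodes a beta-tubulin best known from brain, where it is a main isotype. At day 1 the control livers read 10.06, 9.77, 10.18 and 10.69 in log2 intensity, and the rotenone livers 8.68, 9.21, 9.62 and 9.33. At day 3 the controls read 10.3, 9.85, 9.4 and 10.27, and the rotenone livers 8.87, 8.52, 9.34 and 7.97. At day 14 the controls read 9.34, 9.55, 8.79 and 9.81, and the rotenone livers 8.79, 7.37, 6.9 and 6.9. The groups did not overlap at days 1 and 3, and at day 14 rotenone replicate 1 met the lowest control while the other 3 rotenone livers lay below every liver of all other groups. The change was -0.97 ± 0.36 at day 1 (adjusted p = 0.141, limma), -1.28 ± 0.36 at day 3 (adjusted p = 0.0499) and -1.88 ± 0.36 at day 14 (adjusted p = 0.00241). The fall at day 14 passed under 35 of 35 alternatives, a count that leaves out the filter modelled on the study's methods. That filter did not call it. Without rotenone day 14 replicate 1 the change at day 14 was -2.31. The fall at day 3 passed under 15 of 35, with an adjusted p of 0.0108 to 0.161. Among these it was lost without any 1 of control day 3 replicates 1, 2 and 4 (0.148, 0.0969 and 0.142) or of rotenone day 3 replicates 1, 2 and 4 (0.0806, 0.119 and 0.161). Leaving out control day 1 replicate 1, 2 or 3, control day 14 replicate 1, 2 or 4, rotenone day 1 replicate 2, 3 or 4 or rotenone day 14 replicate 2 left the change at -1.28 and gave 0.0501 to 0.0597.

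Tubb2b encodes the close relative of Tubb2a that migrating neurons require. Its log2 intensity at day 3 was 6.12, 6.12, 5.96 and 6.07 in controls and 5.51, 5.41, 5.66 and 5.54 in rotenone livers. At day 14 it was 5.76, 5.72, 5.68 and 5.99 in controls and 5.76, 5.32, 5.22 and 5.01 in rotenone livers. Groups were apart at day 3, and at day 14 rotenone replicate 1 again lay among the controls. Tubb2b fell by 0.53 ± 0.12 at day 3 (adjusted p = 0.0156, limma) and by 0.46 ± 0.12 at day 14 (adjusted p = 0.034), with -0.24 ± 0.12 at day 1 (0.333). Its mean at day 14 under rotenone, 5.33, was close to the negative control median. The day 3 fall passed under 31 of 35 alternatives. It was lost without control day 3 replicate 1 or 2 or rotenone day 3 replicate 2 (adjusted p = 0.0506, 0.0527 and 0.0587). Being 1.45-fold, it was also lost at the limit of 1.8-fold. The day 14 fall passed under 25 of 35. It was lost without control day 14 replicate 2 or 4 or rotenone day 14 replicate 2, 3 or 4 (0.0575, 0.124, 0.0877, 0.101 and 0.142). Quantile normalization (0.0512), array-median centring (0.0638), the replicate block (0.0552), only the 8 arrays of the day (0.187) and the 1.8-fold limit also lost it. The filter modelled on the study's methods, which is not among the 35, called Tubb2b on neither day.

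Tubb5 encodes the beta-tubulin most widely used by dividing cells. At day 3 controls read 11.41, 10.98, 10.82 and 11.14, and rotenone livers 10.22, 9.97, 9.81 and 9.98. At day 1 controls read 10.39, 10.68, 11.14 and 11.22, and rotenone livers 10.75, 10.88, 10.96 and 9.96. At day 14 controls read 10.55, 9.75, 10.43 and 9.8, and rotenone livers 10.15, 10.11, 9.15 and 9.43. Rotenone livers were lower than every control at day 3 and were mixed with controls on the other days, 1 of 4 lying below its controls at day 1 and 2 of 4 at day 14. Tubb5 fell by 1.09 ± 0.25 at day 3 (adjusted p = 0.0153, limma), with -0.22 ± 0.25 at day 1 (0.721) and -0.43 ± 0.25 at day 14 (0.438). Leaving out control day 3 replicate 1 gave -0.98 (0.0639) and leaving out rotenone day 3 replicate 3 gave -1.03 (0.0510), so that the call was lost. It held under the other 33 of 35 alternatives. The filter modelled on the study's methods, which is not among the 35, did not call Tubb5 at day 3.

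Tubb6 encodes a beta-tubulin found at low levels in most tissues. Control livers read 6.62, 6.73, 6.96 and 7.07 at day 1, and rotenone livers 6.51, 6.59, 6.37 and 6.34. At day 3 controls read 7.13, 7.07, 6.83 and 7.15, and rotenone livers 6.03, 6.04, 6.37 and 6.34. Day 14 gave 6.42, 6.27, 6.23 and 6.58 in controls and 6.51, 6.28, 6.0 and 6.11 in rotenone livers. Groups were apart at days 1 and 3 and overlapped at day 14. Tubb6 fell by 0.85 ± 0.13 at day 3 (adjusted p = 0.000358, limma), a 1.81-fold difference that passed under all 35 alternatives, with -0.39 ± 0.13 at day 1 (0.0957) and -0.15 ± 0.13 at day 14 (0.666). The filter modelled on the study's methods, which is not among the 35, did not call Tubb6 at day 3.

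Tubb4b encodes a beta-tubulin that cells with cilia use in quantity. Its controls read 11.71, 11.75, 12.42 and 12.82 at day 1, and its rotenone livers 11.09, 11.56, 11.86 and 11.28, so that the groups overlapped. Changes were -0.73 ± 0.25 at day 1 (adjusted p = 0.114, limma), -0.49 ± 0.25 at day 3 (0.41) and 0.16 ± 0.25 at day 14 (0.852).

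Averaged over the 3 days, Tubb2a fell by 1.37 ± 0.21 (adjusted p = 5.46e-05), Tubb2b by 0.41 ± 0.07 (0.000296), Tubb6 by 0.46 ± 0.07 (0.000133) and Tubb5 by 0.58 ± 0.15 (0.00923), all by limma. These 4 average falls passed in every fit that left out 1 array. Tubb4b was at -0.35 ± 0.15 (0.131).

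**Figure D2:**
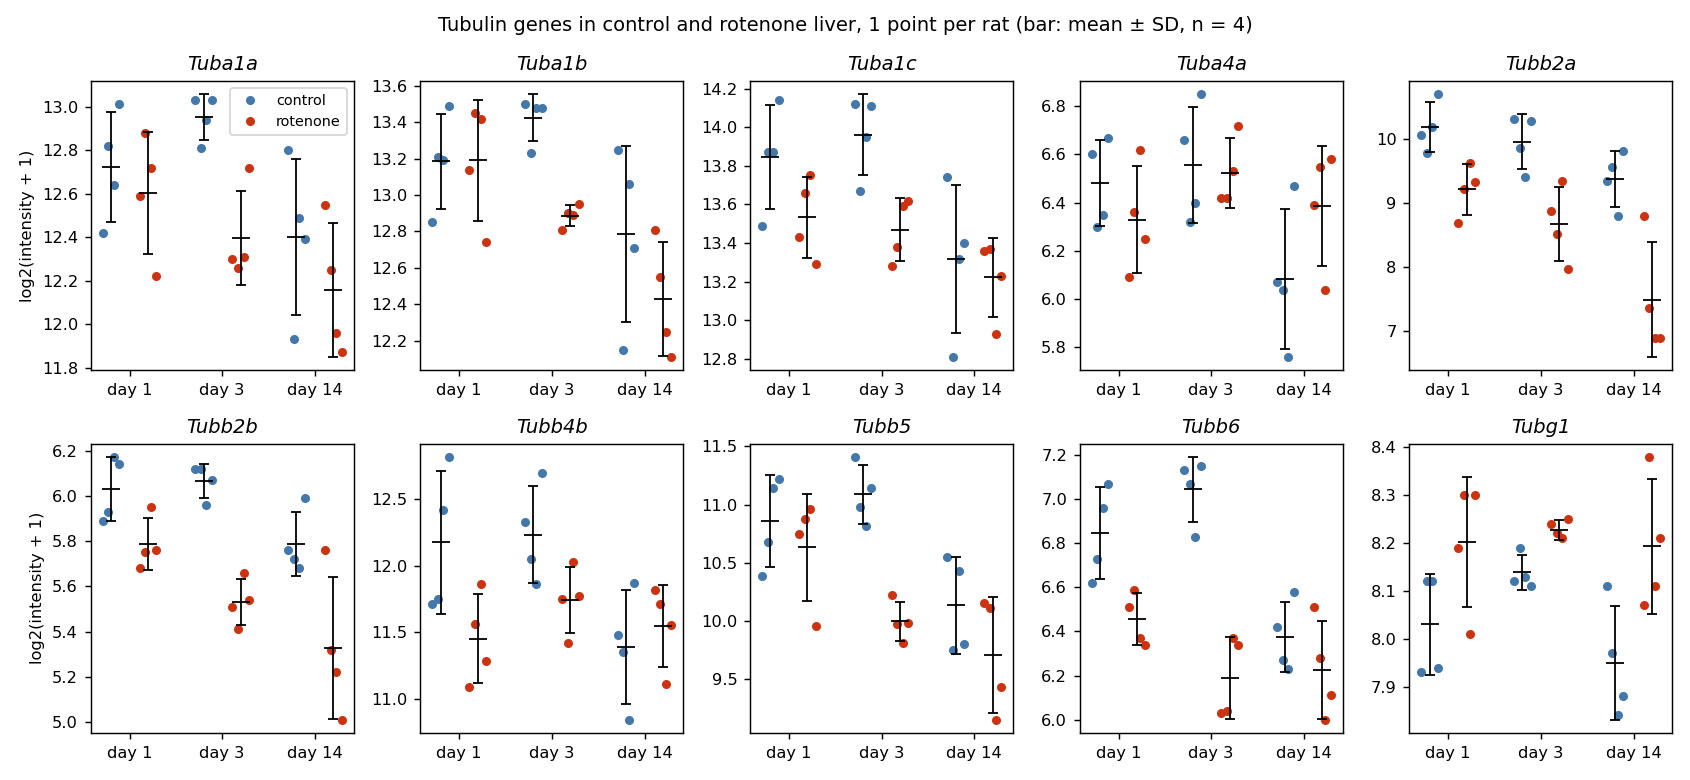
Each panel is 1 tubulin gene, with the log2 intensity of each liver on the y axis, controls in blue and rotenone livers in red by day, and the mean with its SD in black (n = 4). The y axes differ between panels and do not start at 0; in Tubb2a 3 of 4 rotenone livers at day 14 lie between 6.9 and 7.37.

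The alpha-tubulins were measured at every day, and their representing clusters showed no change past the threshold on a single day. A second Tuba1c cluster, given below, fell at day 1. Tuba1a, the main alpha-tubulin of developing neurons, read 13.03, 12.81, 12.94 and 13.03 in controls at day 3 and 12.3, 12.26, 12.31 and 12.72 in rotenone livers. Tuba1b, used in most dividing cells, read 13.5, 13.23, 13.48 and 13.48 in controls and 12.81, 12.9, 12.89 and 12.95 in rotenone livers. Tuba1c, also widely used, read 14.12, 13.67, 13.95 and 14.11 in controls and 13.28, 13.38, 13.59 and 13.62 in rotenone livers. In these 3 genes the 4 rotenone livers of day 3 lay below the 4 controls, although the estimates of -0.56 ± 0.18, -0.54 ± 0.20 and -0.49 ± 0.17 did not pass (limma, adjusted p = 0.111, 0.184 and 0.145). Tuba1a passed at day 3 among clusters with 1 symbol (0.0469), and Tuba1b with only the 8 arrays of that day (0.037). At days 1 and 14 their groups overlapped, with estimates of -0.36 to 0.01. Averaged over the days Tuba1c fell by 0.30 ± 0.10 (adjusted p = 0.0489, limma), while Tuba1a (-0.31 ± 0.11, 0.0578) and Tuba1b (-0.30 ± 0.12, 0.102) did not pass. Of 33 alternatives Tuba1a passed under 9 and Tuba1b under 1, and the Tuba1c call was lost by quantile normalization (0.0834) and array-median centring (0.116), so that the 3 genes are not set apart by these calls. The Tuba1c call passed in 7 of 24 fits with 1 array left out, namely without control day 1 replicate 1, control day 3 replicate 2, control day 14 replicate 2, rotenone day 1 replicate 2 or 3, rotenone day 3 replicate 4 or rotenone day 14 replicate 1, and the other 17 gave an adjusted p of 0.0511 to 0.0927.

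Tuba4a, the alpha-tubulin whose gene lacks the codon for the final tyrosine, had estimates of -0.15 ± 0.16, -0.03 ± 0.16 and 0.30 ± 0.16 at days 1, 3 and 14 (limma, adjusted p = 0.688, 0.967 and 0.346). Its 24 values lay between 5.76 and 6.85, and the groups overlapped on each day.

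Tubg1 encodes gamma-tubulin and was the tubulin gene with estimates above 0 on all 3 days. Controls read 7.93, 8.12, 8.12 and 7.94 at day 1, and rotenone livers 8.19, 8.3, 8.01 and 8.3. At day 3 controls read 8.12, 8.19, 8.13 and 8.11, and rotenone livers 8.24, 8.22, 8.21 and 8.25. At day 14 they read 8.11, 7.97, 7.84 and 7.88, and 8.07, 8.38, 8.11 and 8.21. Rotenone livers were above all controls at day 3 by a narrow gap and overlapped with them at the other days. Daily changes of 0.17, 0.09 and 0.24, each ± 0.09, did not pass (limma, adjusted p = 0.359, 0.76 and 0.145). Averaged over the days Tubg1 rose by 0.17 ± 0.05, a 1.12-fold difference (adjusted p = 0.0394, limma). This rise was lost by quantile normalization (adjusted p = 0.0966) and in 17 of 24 fits with 1 array left out, where the adjusted p reached 0.0759. It held without control day 1 replicate 2 or 3, control day 3 replicate 2, control day 14 replicate 1, rotenone day 1 replicate 3 or rotenone day 14 replicate 1 or 3.

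Whether the effect differed among days was addressed by a moderated F test. No tubulin gene passed (limma; 1 at an unadjusted p under 0.05), where 1.41% of all genes did. The nearest was Tubb6 (F = 7.58, adjusted p = 0.156), whose change at day 14 exceeded that at day 3 by 0.70 ± 0.18 (adjusted p = 0.222). For Tubb2a the change at day 14 minus that at day 1 was -0.91 ± 0.50 (adjusted p = 0.547), so a growing effect was not shown.

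Control livers differed with time as well. Tubb6 was lower in controls of day 14 than in those of day 3 by 0.67 ± 0.13 (adjusted p = 0.0365, limma), when 0.299% of all genes differed, and 8 tubulin genes had an unadjusted p under 0.05 in this comparison. Estimates of the other 9 lay between -0.95 ± 0.25 (Tubb5, adjusted p = 0.285) and -0.19 ± 0.09 (Tubg1, 0.838). From day 1 to day 14 no tubulin gene passed (0.177% of all genes; 6 at an unadjusted p under 0.05), and from day 1 to day 3 none did (0 at an unadjusted p under 0.05). The comparisons of day 14 and day 3 in rotenone livers therefore rest on controls at different levels. For Tubb2a the order of group means ran from 10.17 in controls of day 1 through 9.95 and 9.37 in those of days 3 and 14 to 9.21, 8.67 and 7.49 in rotenone livers of days 1, 3 and 14. In this order the steps from control day 3 to control day 14 and from rotenone day 3 to rotenone day 14 exceeded the within-group SD of 0.548, and the other 3 did not.

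Within groups, the tubulin genes varied together to different degrees. After the group means were taken off, r over the 24 livers had a median of 0.424 over the 45 pairs and lay above 0 in 40. Tuba1a, Tuba1b and Tuba1c gave 0.845 to 0.93 with each other, and the 10 pairs of beta-tubulins 0.307 to 0.819, with Tubb2a and Tubb2b at 0.819. Tubb5 deviated with Tuba1b (0.817) rather than with Tubb2a (0.307), and Tubg1 gave -0.285 to 0.058 with the other 9. These are descriptions over livers that share array, RNA extract and scaling. Tuba1a, Tuba1b and Tuba1c, and likewise Tubb2a and Tubb2b, encode nearly identical proteins. How alike their coding sequences are, and whether their probes also bind each other's RNA, was not tested.

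**Figure D3:**
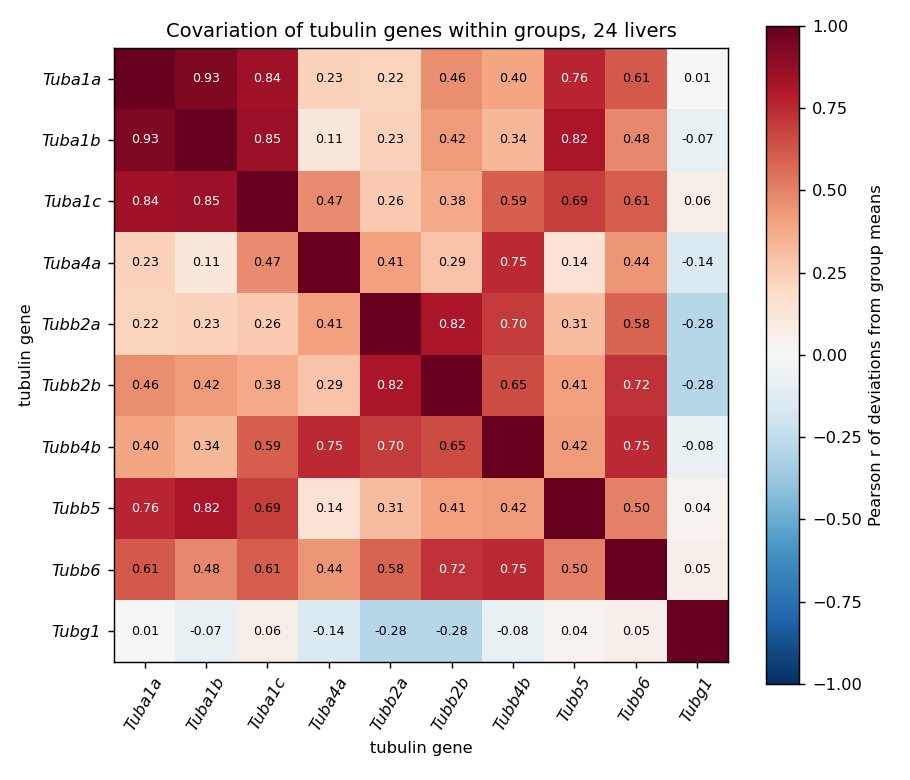
Both axes list the 10 tubulin genes, and each cell gives Pearson r of their deviations from the 6 group means over 24 livers, from blue (-1) to red (1). The Tuba1 genes form a block of 0.845 to 0.93, Tubb2a and Tubb2b reach 0.819, and the Tubg1 row lies between -0.285 and 0.058.

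Further clusters carried tubulin symbols. Tubb2al1, which lies between Tubb2b and Tubb2a on chromosome 17 and was named after its values were seen, read 7.56, 7.75, 7.37 and 8.13 in controls of day 14 and 6.87, 6.51, 5.67 and 5.52 in rotenone livers. Its groups were apart on all 3 days, with -0.77 ± 0.26 at day 1 (limma, adjusted p = 0.0923), -0.96 ± 0.26 at day 3 (0.0384) and -1.56 ± 0.26 at day 14 (0.000635). A second Tuba1c cluster, unplaced in the genome, changed by -0.73 ± 0.21 at day 1 (adjusted p = 0.0485), -0.67 ± 0.21 at day 3 (0.0961) and 0.06 ± 0.21 at day 14 (0.941). It thus passed at day 1, where the representing Tuba1c cluster was at -0.31 ± 0.17 (0.376). The pseudogene cluster Tuba1a-ps3 fell at days 1 and 3 by 0.78 ± 0.16 and 0.63 ± 0.16 (adjusted p = 0.00359 and 0.0249), and Tuba1a-ps1 at day 3 by 0.51 ± 0.14 (0.0454). Clusters of Tuba1b-ps8, Tuba1b-ps11, Tubb4b-ps2 and Tuba1a-ps2 did not pass on any day. Whether the probes of Tubb2al1 and of the pseudogene clusters also bind RNA of the tubulin genes they resemble was not tested.

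Over the 24 livers, the gene nearest to Tubb2a in pattern was Tubb2al1 (r = 0.973), followed by Brwd3 (0.945), and for Tubb2b these were Tubb2al1 (0.938) and Paqr9 (0.916). For Tubb5 they were Smc4, a condensin subunit (0.922), and the histone gene Hist1h2ail1 (0.915). For Tubb6 they were Tfdp1, the partner of E2F factors (0.942), and Stil, a centriole duplication factor (0.925).

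Of 30 genes of mitosis and the spindle, 24 fell at day 1, 30 at day 3 and 5 at day 14, where 0, 4 and 2 of the 10 tubulin genes fell. Mki67, a proliferation marker, fell by 4.29 ± 0.33 at day 3 and Top2a, the mitotic topoisomerase, by 3.73 ± 0.35 (limma, adjusted p = 1.11e-07 and 1.54e-06). The mean log2 intensity of the 30 genes lay between 6.47 and 6.93 in controls of day 3 and between 5.06 and 5.24 in rotenone livers, and in controls of day 14 it lay between 5.2 and 5.87. Over the 24 livers this mean gave r of 0.903 with Tubb6, 0.866 with Tubb5 and 0.85 with Tubb2b. After removal of the group means r was 0.635 for Tuba1c, 0.607 for Tubb5, 0.601 for Tuba1b, 0.529 for Tuba1a and 0.528 for Tubb4b. It was 0.52 for Tubb6, 0.38 for Tubb2b, 0.204 for Tuba4a, 0.184 for Tubb2a and -0.168 for Tubg1. The part of these genes in the tubulin changes was not tested.

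**Figure D4:**
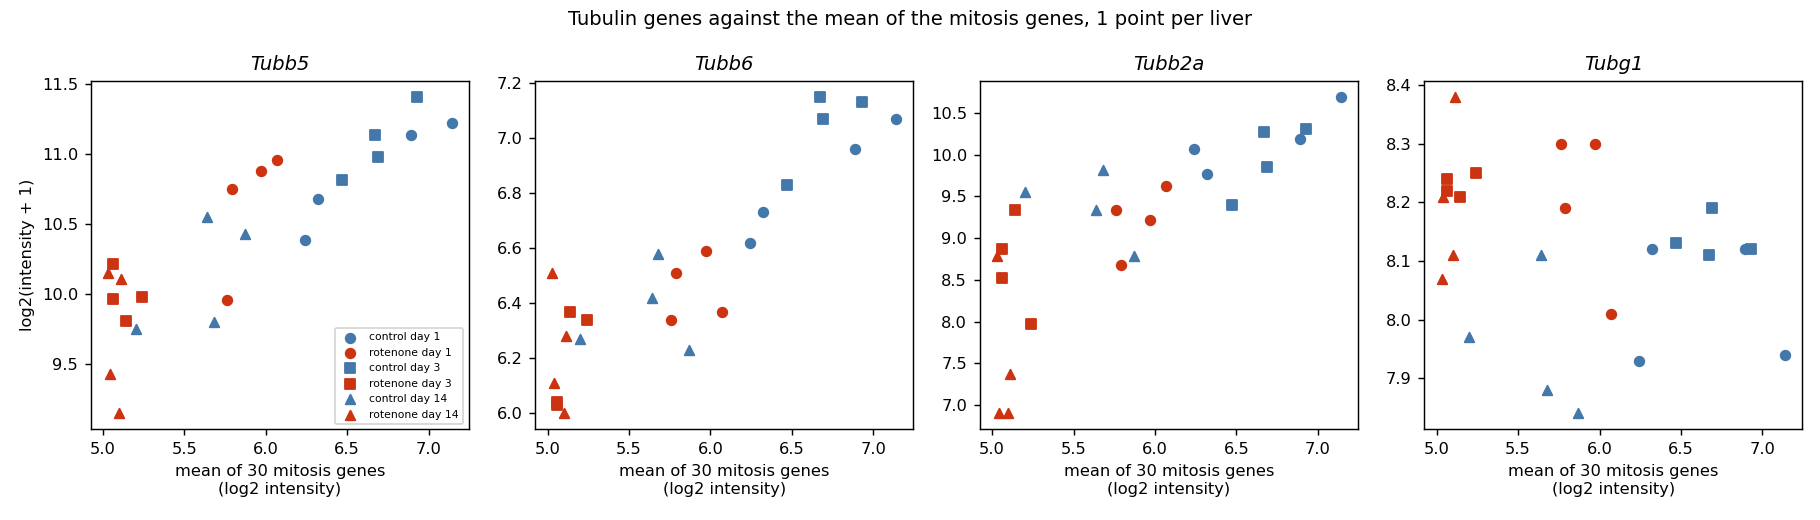
The x axis is the mean log2 intensity of 30 mitosis genes and the y axis, which does not start at 0, the log2 intensity of Tubb5, Tubb6, Tubb2a or Tubg1, with 1 point per liver (blue control, red rotenone, and circle, square and triangle for days 1, 3 and 14). Rotenone livers of day 3 lie at 5.06 to 5.24 on the x axis, apart from their controls at 6.47 to 6.93, and r over the 24 livers is 0.866, 0.903, 0.773 and -0.293.

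Markers of other liver cells moved on the same days. Of 15 stellate and fibroblast markers 8 fell at day 3 and 7 at day 14, such as Lum (-1.53 ± 0.21 at day 3) and Pdgfrb (-1.31 ± 0.21 at day 14; limma, adjusted p = 0.000143 and 0.000638). Their summed linear intensity was 17099 to 20132 in controls and 8162 to 11457 in rotenone livers at day 3, and 16434 to 18275 against 7107 to 11424 at day 14. Of 9 erythroid markers found, of 12 listed, 4 fell at day 3 and 5 at day 14, when their sum was 28981 to 40915 in controls and 2163 to 7231 in rotenone livers, after 29601 to 57950 and 7799 to 19928 at day 3. The mean of the erythroid markers gave r of 0.88 with Tubb2a over the 24 livers and 0.467 after removal of the group means. With Tubb6 it gave 0.715 and 0.677. The mean of the stellate markers gave 0.745 and 0.167 with Tubb2a, and 0.772 and 0.608 with Tubb5. With Tuba1a and Tuba1b, which were not called, it gave 0.736 and 0.74, and 0.726 and 0.688. The mean of the hepatocyte markers gave 0.722 and 0.631 with Tubb2a, and its group means at day 14 were 17.55 in controls and 17.31 in rotenone livers. Of these 9 markers only Apoa1 fell at day 14, with a change of -1.899 ± 0.179, and the median change of the 9 was -0.107. How far the r of this mean with Tubb2a rests on Apoa1 was not tested. The part of these cells in the tubulin falls was not tested.

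Of 12 endothelial markers 6 rose at day 1, and at day 14 Kdr rose (0.66 ± 0.18) and Cdh5 fell by 0.84 ± 0.18 (limma, adjusted p = 0.0355 and 0.00728). Of 12 Kupffer cell and macrophage markers 3 rose at day 1, 1 fell at day 3 and 4 fell at day 14. Of 9 hepatocyte markers Apoa1 rose at day 1 and fell at day 14, and of 7 cholangiocyte markers Epcam rose at day 14. None of 14 lymphocyte or 8 neutrophil markers passed on any day by limma, with 1 lymphocyte marker on each day and 1 neutrophil marker at day 1 at an unadjusted p under 0.05, and 6 of the latter list lay below the negative control median. Of 4 platelet markers 1 fell, at day 1.

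The other tubulins (Tuba3a, Tubb3 and 8 more, 10 in all) gave no call on any day by limma, with 1, 2 and 2 at an unadjusted p under 0.05 at days 1, 3 and 14. Their mean log2 intensity was 5.58 to 5.75 in the 6 groups, close to the negative control median of 5.05, and 2 lay below it, which limits what could be detected. Averaged over the days Tubb4a fell by 0.29 ± 0.08 (adjusted p = 0.0131, limma). Of 11 genes of the gamma-tubulin ring complex and its recruiters, Tubgcp3 and Mzt2b rose at day 1 (0.44 ± 0.11 and 0.43 ± 0.12), and at day 3 Tubgcp5 rose (0.52 ± 0.14) while Nedd1, which recruits the ring to the centrosome, fell by 0.50 ± 0.10. Of 20 folding factors found, of 22, 1 rose and 1 fell at day 1, 1 fell at day 3 and 5 rose at day 14. They included Tbcc, the cofactor that releases finished dimers (0.97 ± 0.17 at day 14), Tbcel, which takes tubulin apart (0.53 ± 0.10 at day 14), and Tbca, a beta-tubulin chaperone that fell by 0.60 ± 0.15 at day 1. The median change of the 20 was 0.28 at day 14, against 0.01 for all genes.

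Of 11 genes of the tubulin mRNA decay route found, of 12, only Cnot11 passed at day 1, where it rose (0.52 ± 0.14). None passed at day 3 by limma, with 2 at an unadjusted p under 0.05. At day 14 Cnot1, the scaffold of CCR4-NOT, rose (0.41 ± 0.09) and the deadenylase Cnot6l fell by 0.33 ± 0.10. Among all genes 5.69%, 3.53% and 5.98% rose and 3.73%, 3.11% and 3.33% fell at days 1, 3 and 14. The part of this route in the tubulin falls was not tested. Of 21 genes that modify tubulin, 4, 2 and 2 rose at days 1, 3 and 14 and 0 fell. Hdac6, which removes acetyl groups from alpha-tubulin, rose by 0.69 ± 0.11, 0.44 ± 0.11 and 0.56 ± 0.11 on the 3 days, and Sirt2, another tubulin deacetylase, by 0.79 ± 0.12 and 0.75 ± 0.12 at days 1 and 3. Nicn1, a subunit of the polyglutamylase, rose by 0.52 ± 0.11 at day 14.

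Of 24 microtubule-associated proteins found, of 26, 0 passed at day 1, 1 rose and 1 fell at day 3, and 2 rose at day 14. Among all genes 5.69% rose and 3.73% fell at day 1, 3.53% and 3.11% at day 3, and 5.98% and 3.33% at day 14. Stmn1, which binds free dimers, fell by 0.73 ± 0.15 at day 3. Camsap3, which caps minus ends, rose by 0.48 ± 0.13 and 0.63 ± 0.13 at days 3 and 14, and Map4 by 0.43 ± 0.12 at day 14. Of 25 transport motor genes, 1 rose and 2 fell at day 1, 1 rose and 1 fell at day 3, and 3 rose at day 14. The dynactin subunit Dctn2 rose on all 3 days (0.42 ± 0.10, 0.43 ± 0.10 and 0.57 ± 0.10) and Dctn3 at day 14 (0.50 ± 0.11). The motor subunits Dynll2 and Kif3a fell at day 1 by 0.44 ± 0.10 and 0.31 ± 0.08, and Dync1h1 at day 3 by 0.49 ± 0.13. These adjusted p-values lay between 0.000351 and 0.049 for the genes named from the lists of tubulin biology.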

How the data were processed

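Liver RNA of 24 rats was hybridised to the Rat Transcriptome Array 1.0, 4 arrays in each of 6 groups. According to the study's methods, the authors applied Guanine Cytosine Count Normalization and Signal Space Transformation and condensed the probes by RMA, which the submitters' processing notes also name, to 1 deposited intensity per transcript cluster. RMA fits probes over all arrays together, so that each value depends on the set of arrays. The array's genome build is not given in the sources used here. Values were read as linear, and log2(intensity + 1) was analysed. Of 70580 features 1738 were control probe sets, and of 68842 clusters 23446 had 1 symbol in the platform annotation, 505 several and 44891 none.

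A model with 6 group means was fitted with limma 3.58.1 in R 4.3.3, and two-sided p-values were adjusted over all clusters (Benjamini-Hochberg). It was tested on simulated data. Tables were made with Python 3.11.15. P-values measure the spread between animals, and shared cages were not modelled. The genes named are the 10 tubulin genes, per list and day up to 2 rises and 2 falls of the largest size past the threshold, and the 2 genes nearest in r. Promoters are RefSeq sequences on GRCr8. The tubulin genes and lists were chosen with earlier results of these data known.

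Alternatives were another pseudocount (16), a filter on dim clusters, quantile normalization, array-median centring, a trended and robust prior, array weights, clusters with 1 symbol alone, only the 8 arrays of a day, the replicate number as a block, the mean of a gene's clusters, a difference of at least 1.8-fold, a filter modelled on the study's methods (analysis of variance, Kruskal-Wallis test and ratio), and each array left out.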

Additional observations from a re-analysis of the deposited data

Results flagged for a closer look

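Among 60 sets of 4 livers (10 tubulin genes in 6 groups), 2 held a liver far from the other 3 of its group, where chance gives about 1 in 20. Tuba1a read 12.72 in rotenone day 3 replicate 4, against 12.26 to 12.31 in the other 3. Tuba1b read 13.23 in control day 3 replicate 2, against 13.48 to 13.5.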

How the results depend on the processing

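The 35 alternatives turned the direction of none of the tubulin calls. With 1 array left out, the number of tubulin genes that fell lay between 1 and 4 at day 3, between 1 and 2 at day 14 and between 4 and 7 for the average, and the number that rose for the average between 0 and 1. It was 1 at day 3 without control day 3 replicate 1, where Tubb6 alone was called. At day 1, 1 gene (Tubb6) fell among clusters at or above the median mean (adjusted p = 0.0362 at the lowest) and among clusters with 1 symbol. At day 3 clusters with 1 symbol gave 5 falls, Tuba1a among them, and the 8 arrays of the day gave 4, with Tuba1b called and Tubb2a lost. Clusters with 1 symbol also gave 1 rise at day 14 (Tubg1) and 1 gene whose effect differed among days (Tubb6), where fewer clusters are adjusted over. At day 14 the count of falls was 1 after quantile normalization, array-median centring, with the 8 arrays of the day and at 1.8-fold or more. The average gave 0 rises after quantile normalization and, at 1.8-fold or more, 0 rises and 1 fall. The filter modelled on the study's methods, not counted in the 35, called 0 tubulin genes at days 3 and 14. It asked for a treatment term under 1e-06 or an interaction term under a limit of its own. The Kruskal-Wallis test and a ratio of 1.8-fold had to be passed as well. This way of joining the parts was a choice made here. No tubulin gene met either limit of the analysis of variance. The lowest treatment p was 5.035e-06 and the lowest interaction p 0.003071, both for Tubb6. Tubb2a at days 1, 3 and 14 and Tubb5 and Tubb6 at day 3 passed the Kruskal-Wallis test and the ratio. With the replicate block, 1 gene fell at day 14 (Tubb2a), Tubb2b being lost (0.0552), and Tubb2a at day 3 (adjusted p = 0.0718) and Tuba1c for the average (0.0643) were also lost. Same-numbered control and rotenone livers gave r of -0.114 to 0.169 for their deviations, and the labels do not say whether the numbers stand for anything shared. Array medians differed between rotenone and control by -0.09, 0.01 and -0.02 at days 1, 3 and 14 on the log2 scale. Signals below the 95th percentile of the negative controls limit Tubb2b, Tubb6, Tuba4a, Tubg1 and, in rotenone livers of day 14, Tubb2a.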
